A study of Arabidopsis thaliana with 6 samples.

Results

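AT1G53430 and AT1G53440 are neighbouring genes of Arabidopsis thaliana that the annotation describes as leucine-rich repeat transmembrane protein kinases. They make up 2 entries of the 708 that the authors' deposited table holds, which compares roots of the hb13 mutant with roots of the wild type. They were picked by name because both were higher in the mutant, so their difference between genotypes is described here and not tested. The study sequenced polyadenylated RNA from roots of seedlings at 5 days, in 3 libraries of the hb13 mutant and 3 libraries of the wild type, both in the Col-0 ecotype, the standard laboratory accession. The mutated gene, HB13, encodes a homeodomain-leucine zipper class I transcription factor. The labels name neither the allele nor whether plants were pooled, and they give the tissue as whole root while the protocol places the dissection at about 0.5 cm from the root tip. The table gives 1 expression value per gene and genotype, on a scale that neither its header nor the labels name, so no spread between libraries and no sequencing depth can be given. HB13 has no entry in the table, so its transcript gave no check of the labelled genotypes.

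Receptor-like kinases sit in the plasma membrane, with an extracellular part that binds a ligand or a partner and a protein kinase inside the cell that passes the signal on. Those with leucine-rich repeats form the largest group of plant receptor kinases and include the receptors for bacterial flagellin and for brassinosteroid hormones. AT1G53430 and AT1G53440 belong to a subfamily, often called group VIII-2, whose extracellular part joins leucine-rich repeats to a malectin domain, a fold related to a carbohydrate-binding protein of animals. Relatives include RKF1, first described as a receptor-like kinase of flowers, AT3G14840 (LIK1), a partner of the chitin receptor kinase CERK1, and AT1G56145 (CORK1), which takes part in responses to cellulose breakdown products.

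The genes lie head to tail on the plus strand of chromosome 1. In the RefSeq annotation of assembly TAIR10.1, AT1G53430 spans chr1:19934987-19941185 and AT1G53440 spans chr1:19945869-19951562, with 4683 bases and no other annotated gene between them. Another receptor kinase of the same subfamily, AT1G53420, lies 3492 bases upstream of AT1G53430 on the opposite strand. The transcripts used here, those with the longest coding sequence, have 23 exons each and encode proteins of 1038 residues for AT1G53430 and 1035 residues for AT1G53440. Of the 21 coding exons between the first and the last, 19 had the same length in both genes. Each gene had 8 inner coding exons of exactly 72 bases, which is 24 codons, the usual length of a leucine-rich repeat.

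**Figure D1:**
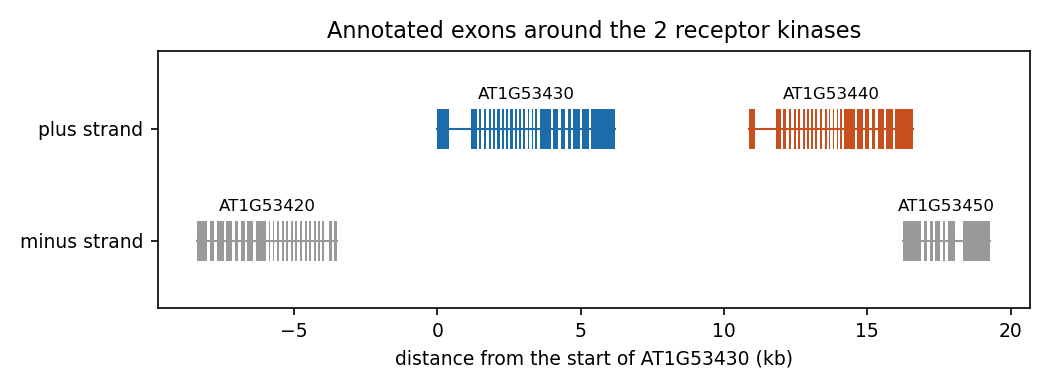
Exons (boxes) and introns (lines) of the receptor kinase pair and of the nearest protein-coding genes, by distance in kb from the start of AT1G53430, with the strand on the vertical axis and 1 transcript per gene, that with the longest coding sequence. The pair share the plus strand, with 4683 bases between them, and 19 of their 21 inner coding exons have the same length in both genes.

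The sequences of the pair were compared because the expression values of each gene depend on whether its reads can be told from those of the other. Coding sequences were identical at 91.3% of 3101 aligned bases. The reads were 100 bases long, and the longest run of identical bases in the transcripts was 79, so no stretch of read length was the same in both. The closest stretches of 100 bases differed at 1 base. The first of them crosses the junction of exons 1 and 2, at chr1:19935366-19936243 in AT1G53430 and chr1:19946021-19946866 in AT1G53440, each span including the intron. It is given in the coding direction with the differing base in capitals, T28A, counted from 1 at the 5′ end with the AT1G53430 base first.
AT1G53430: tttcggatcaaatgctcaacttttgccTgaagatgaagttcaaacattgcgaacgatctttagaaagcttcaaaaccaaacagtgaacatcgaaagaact
AT1G53440: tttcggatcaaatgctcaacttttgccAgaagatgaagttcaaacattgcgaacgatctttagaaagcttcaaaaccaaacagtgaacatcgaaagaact

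Other parts of the transcripts were further apart. Among the 19 coding exons of equal length, identity ranged from 78.0% in exon 16 to 98.3% in exon 14. Of the exons of 72 bases that could be compared in place, exon 3 differed most, at 14 bases. It lies at chr1:19936458-19936529 in AT1G53430 and chr1:19947061-19947132 in AT1G53440, and the differing bases are in capitals.
AT1G53430: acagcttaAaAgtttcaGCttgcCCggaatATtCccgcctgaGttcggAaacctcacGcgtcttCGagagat
AT1G53440: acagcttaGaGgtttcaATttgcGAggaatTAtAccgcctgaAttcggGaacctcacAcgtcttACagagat

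The kinase part is represented by 100 bases of exon 22 around the codons for the aspartate-phenylalanine-glycine motif, which binds the magnesium ion in active protein kinases and starts at residue 813 of AT1G53430 and residue 811 of AT1G53440. These bases lie at chr1:19940155-19940254 and chr1:19950761-19950860 and differ at 6 positions, in capitals.
AT1G53430: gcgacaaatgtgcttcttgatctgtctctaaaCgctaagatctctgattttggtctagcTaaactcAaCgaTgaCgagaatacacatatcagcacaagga
AT1G53440: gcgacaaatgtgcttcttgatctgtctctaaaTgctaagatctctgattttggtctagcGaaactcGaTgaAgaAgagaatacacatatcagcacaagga

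Proteins translated from these coding sequences were identical at 914 of 1034 aligned residues (88.4%). The identity was uneven along the chain. The most hydrophobic stretch of 19 residues outside the first 40, the usual sign of a membrane-spanning segment, was at residues 611 to 629 of AT1G53430 and 609 to 627 of AT1G53440. Before it, in the extracellular part with the repeats and the malectin domain, 83.4% of 607 aligned residues were identical. After it, in the part with the kinase, 95.8% of 408 were identical. In windows of 50 residues the identity ranged from 72% to 100%, and 12 of 99 windows, all of them after the hydrophobic stretch, had no difference.

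Of the 3555 stretches of 100 bases in the AT1G53430 transcript, 0 were identical to a stretch of the AT1G53440 transcript, 180 (5.06%) came within 2 mismatches of one, and the median stretch had 9 mismatches at its closest match. In AT1G53440 the counts were 0 and 180 (5.81%) of 3099, with a median of 8. At the closest match to any of the other 11 receptors of the subfamily, no stretch of either gene had fewer than 14 mismatches. Exact copies of exon stretches of 100 bases elsewhere in the genome, on either strand, numbered 0 of 1828 for AT1G53430 and 0 of 1372 for AT1G53440. Over most of each transcript a stretch of read length thus differed from the other gene at more than 2 bases. How reads from the closest stretches were assigned is not given in the sources used here, and the part of such reads in the values of either gene was not tested.

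**Figure D2:**
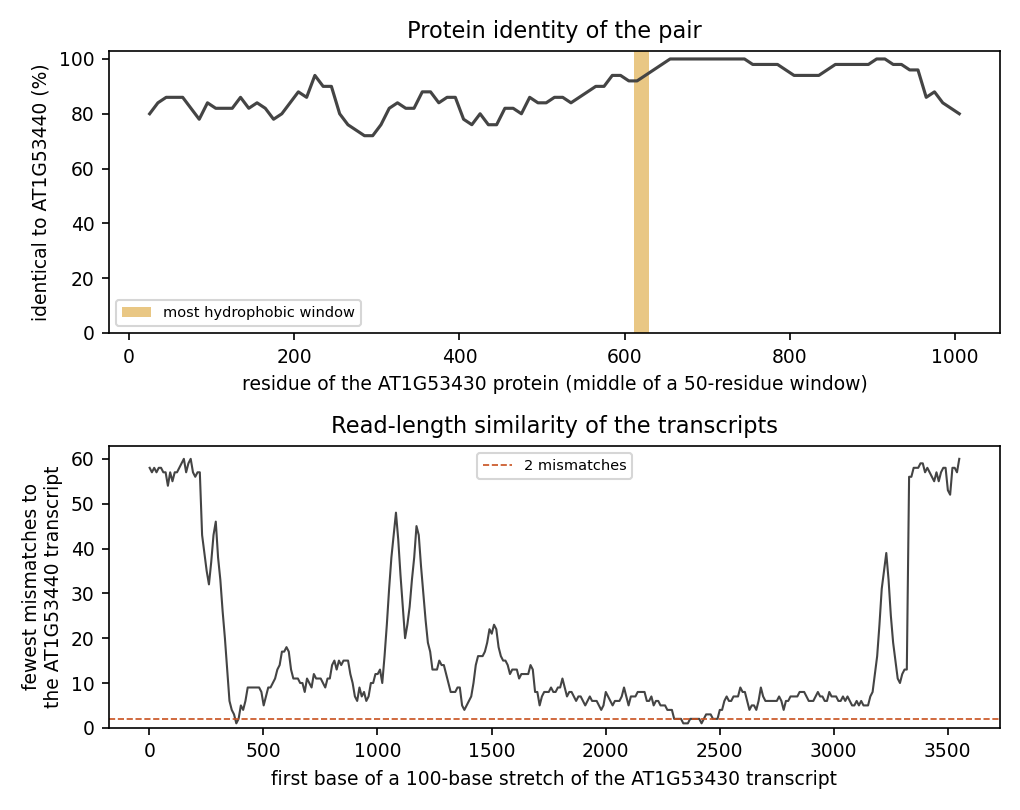
Top, share of residues of AT1G53430 identical to AT1G53440 in windows of 50 residues (percent), with the most hydrophobic stretch shaded; bottom, fewest mismatches between each 100-base stretch of the AT1G53430 transcript and any stretch of the AT1G53440 transcript, compared without gaps, with a dashed line at 2 mismatches. Identity was lower before the shaded stretch (83.4% of aligned residues) than after it (95.8%), and few stretches of read length came within 2 mismatches.

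AT1G53440 had an expression value of 4.04 in hb13 roots and 2.14 in wild-type roots in the authors' deposited table. The hb13 value was 1.89 times the wild-type value, a log2 ratio of hb13 over wild type of 0.92. The authors' deposited table gave this gene a q-value of 0.00246, the smallest in the table, which 342 of the 708 entries share. AT1G53430 had 12.7 in hb13 roots and 9.24 in wild-type roots in the authors' deposited table. The hb13 value was 1.38 times the wild-type value, a log2 ratio of 0.46. Its q-value in the authors' deposited table was 0.0194, and 520 entries had a q-value at or below it.

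Both genes were thus higher in the mutant, which is the direction of 55.6% of the 708 entries, and nothing is read from this count because it chose the genes. Of all entries, 33.6% were higher with a q-value under 0.01, as AT1G53440 was, and 12.4% were higher with a log2 ratio of at least 1, as neither gene was. The log2 ratio of AT1G53440 exceeded that of AT1G53430 by 0.46. No error can be put on this difference, and it was not tested. The values are not compared between the genes as levels, since it is not stated whether they are scaled to transcript length. In the bulk roots, more cells that express the genes and more RNA per cell cannot be told apart.

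**Figure D3:**
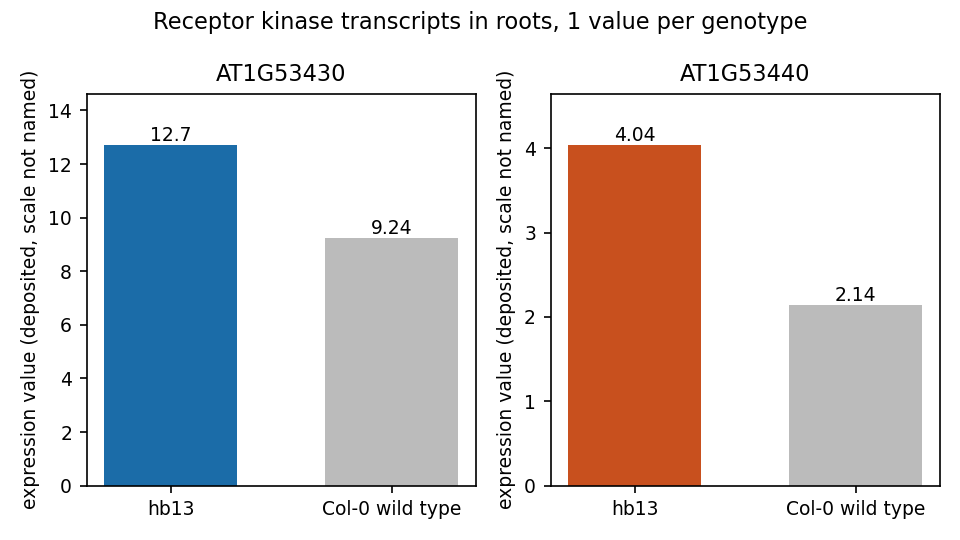
Expression value of AT1G53430 (left) and AT1G53440 (right) in hb13 roots and Col-0 wild-type roots, as deposited by the authors with 1 value per genotype, on axes that start at 0 and differ between the panels. The hb13 bar is higher for both genes, at 12.7 against 9.24 for AT1G53430 and 4.04 against 2.14 for AT1G53440, with no error bars because the table has no values per library.

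The changes were of different standing within the table. AT1G53430 was 346th of the 394 entries that were higher in the mutant when ordered from the largest log2 ratio, and the smallest ratio among those 394 was 0.38. Of the 100 entries nearest to AT1G53430 in mean value, 53 were higher in the mutant, and all 53 had a larger log2 ratio than its 0.46, with a median of 0.68. AT1G53430 thus had the smallest upward change among listed entries of like value. AT1G53440 was 106th of the 394. Of the 100 entries nearest to it in mean value, 46 were higher, with a median log2 ratio of 1.03, and 32 of the 46 had a larger ratio than its 0.92. The median absolute log2 ratio was 1.003 among the 100 entries near AT1G53440 and 0.71 among the 100 near AT1G53430, so listed changes were larger at the lower value, as the plot of change against value shows. All these entries have a q-value under 0.05, and changes that did not reach it are absent. The ranks and medians therefore describe the list and not all genes of like value.

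**Figure D4:**
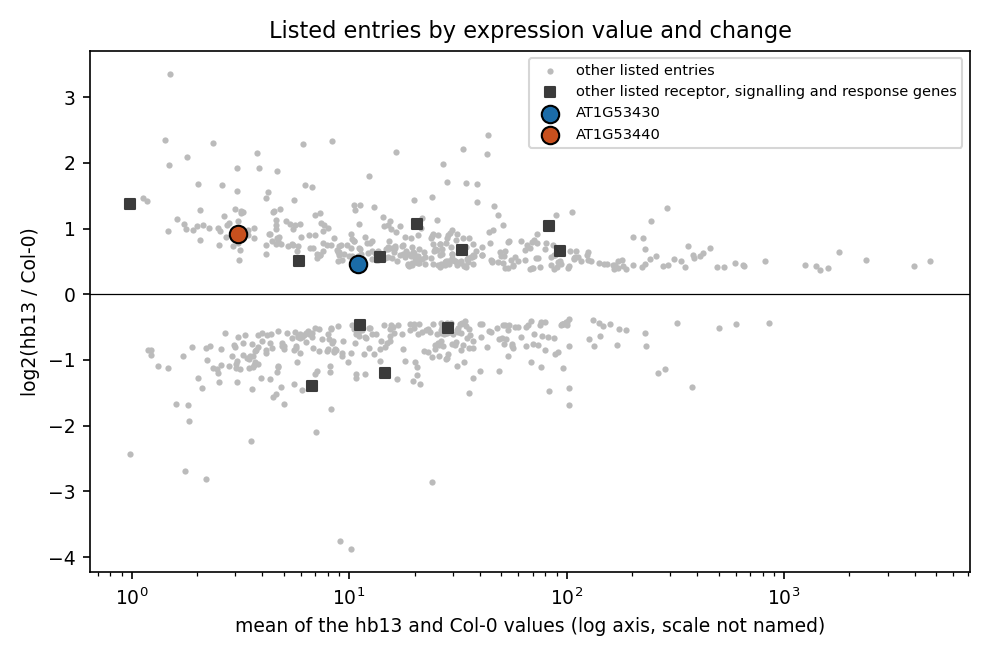
Log2 ratio of hb13 over Col-0 wild type (vertical) against the mean of the genotype values (horizontal, log axis) for the 706 entries with a ratio, with the receptor pair as large circles and the other named receptor, signalling and response genes as squares. AT1G53430 lies at the lower edge of the upward entries (0.46) and AT1G53440 inside them (0.92).

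A common factor between the genotypes would have to exceed the gene's own log2 ratio to turn its direction. The median log2 ratio of the 706 entries with a ratio was 0.45. Relative to it AT1G53430 stood at 0.012 and AT1G53440 at 0.47. That median is taken over entries selected for a difference, none of which has an absolute log2 ratio under 0.37, and is not a measure of scaling over all genes.

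The entries most like each gene in its pair of values were found by distance on the log2 scale over the 2 genotype values, whatever their unit. For AT1G53430 these were AT1G64890 and AT2G34355, both described as major facilitator superfamily proteins, and the peptide transporter gene PTR1. Their log2 ratios were 0.51, 0.52 and 0.52. For AT1G53440 they were AT1G64590, described as a Rossmann-fold protein, the long-chain acyl-CoA synthetase gene LACS1 and the sulfate transporter gene AST91. Their log2 ratios were 0.92, 0.78 and 0.92. None of these genes is a receptor kinase in the annotation, and 2 values per gene cannot show more than a like level and ratio.

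The other members of the subfamily were looked for next. Of 13 group VIII-2 receptors, AT1G53430 and AT1G53440 were listed, both higher, and the other 11 were not listed. The pair were chosen as listed and higher, so nothing is read from their share of the 13. Over the annotation, 2.49% of the 27444 nuclear protein-coding genes were listed, 1.38% as higher and 1.11% as lower. With that share, none listed among the other 11 is near the background. The 11 include AT1G53420, the remaining receptor of the cluster, RKF1 and its neighbours AT1G29720, AT1G29730 and AT1G29740, the AT1G56120 to AT1G56145 cluster, AT1G07650 and AT3G14840. Their values are not analysed here, so it cannot be said whether they were unchanged, too low to test or changed by less than could be called. In protein sequence each of the pair was far closer to the other than to any of these. The next closest was AT1G07650, at 54.7% identity to AT1G53430 and 53.3% to AT1G53440. AT1G53420, though adjacent, reached only 49.6% and 48.6%.

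**Figure D5:**
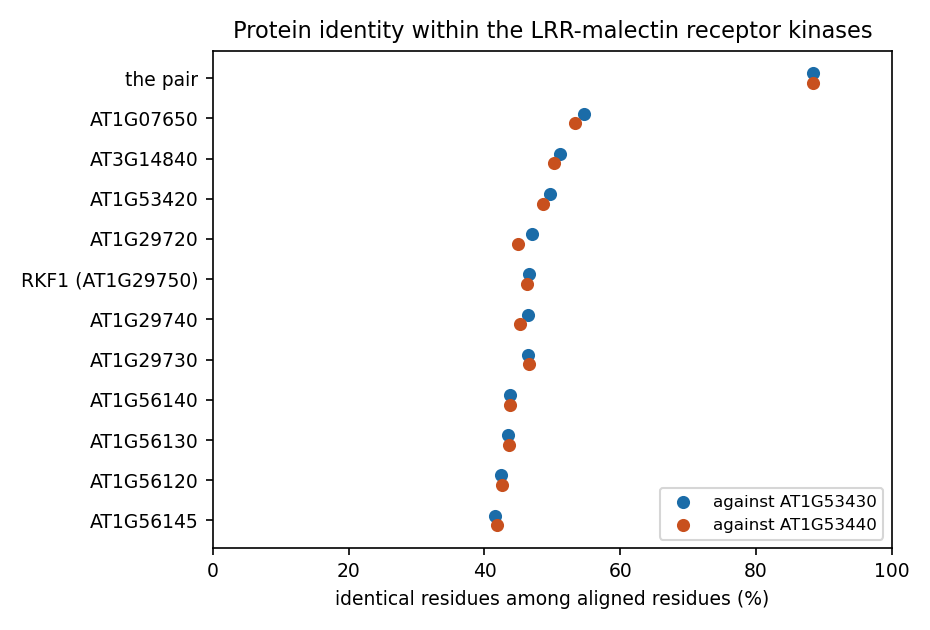
Share of aligned residues identical (percent) between each of the other group VIII-2 receptors and AT1G53430 or AT1G53440, with the identity of the pair to each other in the top line. The pair stand at 88.4%, and the 11 others lie between 41.6% and 54.7%.

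Among all 187 genes whose annotated product names a leucine-rich repeat kinase, 3 were listed (1.60%), the pair and AT4G37250. AT4G37250 had 9.43 in hb13 roots and 13.01 in wild-type roots in the authors' deposited table, a log2 ratio of -0.46. So 2 were higher, the pair that were chosen for it, and 1 was lower. Over all nuclear protein-coding genes 2.49% were listed. The pair were chosen as listed, so nothing is read from the share of the 187 beside it, and it was not tested. The count rests on the wording of the product names. FRK1, a leucine-rich repeat receptor kinase whose product name lacks those words, was listed as higher and is described with the response genes.

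Lists of other receptors and of genes that act after them give the surroundings of the pair. None of 18 pattern-recognition receptors and co-receptors was listed, among them FLS2, the flagellin receptor, BAK1, its co-receptor, and CERK1. None of 17 receptors of the CrRLK1L family, which carry malectin-like domains of another arrangement and include FERONIA, was listed either. With 2.49% of all nuclear protein-coding genes listed, a count of 0 in lists of this size is near the background. Of 11 cytoplasmic kinases and oxidases close to such receptors, 2 were listed and both were higher, against 2.49% listed and 1.38% listed as higher over all nuclear protein-coding genes. These lists were written with earlier results of these data known, so their shares are descriptions. RIPK, a cytoplasmic kinase that phosphorylates the immune regulator RIN4, had 16.5 in hb13 roots and 11.2 in wild-type roots in the authors' deposited table, a log2 ratio of 0.56. RBOHD, the oxidase behind the burst of reactive oxygen in immune responses, had 6.93 in hb13 roots and 4.88 in wild-type roots in the authors' deposited table, a log2 ratio of 0.51. Both ratios lie between those of AT1G53430 and AT1G53440, which were 346th and 106th of the 394 higher entries. Most higher entries lie in that range, so nothing is read from it.

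Of 20 genes known to respond to microbial patterns, 6 were listed (30.0%), 4 higher and 2 lower, with a median log2 ratio of 0.67. Over all nuclear protein-coding genes 2.49% were listed, over all entries 55.6% were higher, and the median log2 ratio of entries was 0.45. The list was written with earlier results of these data known, so its share is a description. FRK1, a flagellin-induced receptor-like kinase, had 1.43 in hb13 roots and 0.548 in wild-type roots in the authors' deposited table, a log2 ratio of 1.38. The class III peroxidases PER4, AT1G14550 and AT5G64120 had log2 ratios of 0.66, 0.67 and 1.03. WRKY40, a transcription factor that restrains defence genes, had 3.70 in hb13 roots and 9.77 in wild-type roots in the authors' deposited table, a log2 ratio of -1.40. WRKY33, a regulator of camalexin synthesis, had a log2 ratio of -0.51. The list therefore did not move one way with the receptor pair.

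The genes around the pair were examined for a change shared by the region. Of the 40 annotated genes within 20 positions on either side, 32 of them protein-coding, 0 were listed, AT1G53420 and AT1G53450 included. For the 32 this is near the background of 2.49% of nuclear protein-coding genes. AT1G53450 lies on the minus strand and its exons, over all its transcripts, cover the last 557 bases of AT1G53440, which is 17.4% of that transcript. The libraries were directional per the labels' protocols, and whether the strand was used in counting is not given in the sources used here. AT1G53450 has no entry and its values are not analysed here, so the part of reads from it in the values of AT1G53440 was not tested.

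Direct neighbours on the same strand that were both listed formed 26 pairs of protein-coding genes. Of these, 17 were both higher, 5 were both lower and 4 moved in opposite directions, while 55.6% of all 708 entries were higher. Product names were the same in 6 of the 26 pairs, the receptor pair included, and others are of 1 gene family. The counts were not tested. AT1G53430 and AT1G53440 are 1 of the 17, and their direction in common is how they were chosen. The ratios within the 22 pairs of one direction differed by a median of 0.21 on the log2 scale, and 14 of the 22 had a smaller difference than the 0.46 between AT1G53440 and AT1G53430.

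The 250 bases before each annotated start are shown because the pair were higher together in a mutant of a transcription factor. Homeodomain-leucine zipper class I proteins are known to bind CAATNATTG, a palindrome, and its core AATNATT, which lies inside it, was searched too, on both strands. Matches of the core are in capitals. The windows are chr1:19934737-19934986 for AT1G53430 and chr1:19945619-19945868 for AT1G53440, plus strand.
AT1G53430: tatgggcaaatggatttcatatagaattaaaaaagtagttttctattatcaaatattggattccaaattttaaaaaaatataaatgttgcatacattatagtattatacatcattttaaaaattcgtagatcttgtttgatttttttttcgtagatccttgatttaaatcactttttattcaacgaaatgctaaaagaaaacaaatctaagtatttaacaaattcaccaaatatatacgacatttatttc
AT1G53440: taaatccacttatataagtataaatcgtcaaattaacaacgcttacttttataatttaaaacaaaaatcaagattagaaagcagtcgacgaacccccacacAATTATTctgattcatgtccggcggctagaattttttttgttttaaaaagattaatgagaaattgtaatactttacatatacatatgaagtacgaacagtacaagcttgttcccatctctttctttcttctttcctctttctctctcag

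Neither window held CAATNATTG, which was present in 0.918% of the windows of 27443 nuclear protein-coding genes. The core had 0 matches before AT1G53430 and 1 before AT1G53440, starting 149 bases upstream, and 30.5% of all such windows held it. In windows of 1000 bases CAATNATTG was again in neither, against 3.44% of all genes. The core had 1 match before AT1G53430 and 4 before AT1G53440, against a median of 1 and 68.6% of all genes with at least 1. Among 684 listed genes, 38.6% held the core within 250 bases and 79.8% within 1000 bases. These are descriptions of letters in a window and say nothing on whether HB13 binds there.

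The labelled tissue could not be checked, because the table lists genes that differ between the genotypes and gives no level for other markers. Of 14 root markers, 1 was listed (7.14%, against 2.49% of nuclear protein-coding genes), RHD6, a transcription factor of root hair cells, with a log2 ratio of 0.62. Of 12 photosynthesis genes that mark leaf tissue, 0 were listed. The other 13 root markers, COBL9 and EXP7 of root hairs among them, were not listed. The part of a change in root hair cells in the values of the receptor pair was not tested.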

How the data were processed

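Transcript levels were measured in 3 hb13 and 3 wild-type root libraries, grouped by their titles. The authors' deposited table has 1 expression signal per genotype, a log2 fold change of hb13 over wild type, and a q-value from 0.00246 to 0.05. The submitters' processing notes name TopHat2 2.0.13, Cufflinks 2.1.1, Cuffdiff and the build TAIR10, without their roles. With no value per library, no model was fitted: the planned description of the authors' values was used. Log2 ratios were recomputed from the expression values and differed from the deposited ones by at most 1.02e-05. Locations, exons and sequences come from the RefSeq annotation and genome of TAIR10.1. The table has no coordinates of its own. Proteins were aligned globally with BLOSUM62, and stretches were compared without gaps. The sequence comparisons were tested on simulated sequences. Genes named with values by rule are the pair, listed relatives, listed neighbours, listed members of the receptor and response lists and the 3 nearest entries per gene. RHD6 comes from the marker list, and the kinases of the closing section were chosen after their values were seen. Unlisted relatives, neighbours and receptors are named for sequence or as not listed. The pair and all lists were chosen with earlier results of these data known. Python 3.11.15, pandas 2.3.3, NumPy 2.4.6, Biopython 1.88 and matplotlib 3.10.9 were used.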

Additional observations from a re-analysis of the deposited data

How the results depend on the processing

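No paired analysis was possible because libraries of a genotype are combined into 1 value, and leaving out replicates or fitting counts could not be done either. With 1 added to both values the log2 ratio was 0.42 for AT1G53430 and 0.68 for AT1G53440, and adding 0.1 gave 0.46 and 0.89. Centred on the median of listed entries they were 0.012 and 0.47. Adding the same number to both values cannot turn a direction, so those runs say nothing on it. Centring left both ratios positive, AT1G53430 only just, but that median is not a measure of scaling. At a q-value under 0.01, 1 of the pair was left (AT1G53440). It was also the only group VIII-2 receptor and the only annotated leucine-rich repeat kinase left. Of neighbouring pairs of one direction, 8 were left. At an absolute log2 ratio of at least 1, 0 of the pair, 0 group VIII-2 receptors and 0 leucine-rich repeat kinases were left. A mean value of at least 5 left 1 of the pair (AT1G53430), which was also the only group VIII-2 receptor left. These thresholds can only remove entries from the list. Counting neighbours on either strand gave 35 pairs of one direction and 14 of opposite directions among 49, against 22 and 4 among 26 on the same strand. Within 50 genes on either side, 1 was listed, AT1G53233, with a log2 ratio of 0.96. Identical stretches of the pair numbered 98 at 50 bases, and stretches of 100 bases within 2 mismatches, a setting chosen after the data were seen, numbered 180. The core AATNATT gave 1 match upstream of AT1G53440. Windows of 1000 bases, also chosen later, left CAATNATTG at 0 for both. Depth is unknown, so the precision of each value is too.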

Other observations

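Other genes with kinase in their product name were also in the table, and those named were chosen after their values were seen. Of 1388 genes whose annotated product contains the word kinase, 31 were listed (2.23%), 17 higher and 14 lower, near the background of 2.49% of nuclear protein-coding genes listed and 55.6% of entries higher. The count includes the receptor kinases and also metabolic kinases, kinase-related proteins and proteins named for a kinase they act with. The 14 lower include CIPK13 and ETR2, with log2 ratios of -1.18 and -1.14. Some of the 31 are MAP kinase kinase kinase genes. The number of such genes in the annotation was not counted, so nothing is read from how many were listed. MAPKKK13 had 6.38 in hb13 roots and 2.65 in wild-type roots in the authors' deposited table, a log2 ratio of 1.26. MAPKKK17 and MAPKKK19 had log2 ratios of 0.86 and 1.01, and MAPKKK15 had -0.90. ARSK1, a kinase expressed in roots, had 25.8 in hb13 roots and 16.0 in wild-type roots in the authors' deposited table, a log2 ratio of 0.69. Of 175 genes whose product name holds both receptor and kinase, 3 were listed (1.71%, against 2.49% of nuclear protein-coding genes), 2 higher and 1 lower. They were FRK1, AT1G63600 and AT3G22060, with log2 ratios of 1.38, 1.06 and -1.19. The names of AT1G63600 and AT3G22060 call them only kinase-related, so they are not taken here as receptor kinases. This wording leaves out the higher pair and also WAKL6, named as a wall associated kinase-like gene, with a log2 ratio of -0.58.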
